A study of Mus musculus with 22 samples.

Results

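The genes described are the claudins (symbols in Cldn), the connexins (Gja, Gjb, Gjc, Gjd and Gje) and the keratins (Krt) of the mouse. They were chosen by symbol as protein-coding genes of GENCODE M21 whose symbol is the family name followed by a number, and they are 105 of the 55487 genes listed: 32 claudins, 20 connexins and 53 keratins. Gjb5, Cldn4 and Krt13 were selected on their measured values, Gjb5 and Cldn4 on the fold change in the comparison of C1C3b with mCherry and Krt13 on that of C1+14 with mCherry. Their levels against mCherry are therefore given as a description, without a test, and the other members are given without a p in those 2 comparisons.

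The study measured poly(A) RNA in a mouse embryonic stem cell line without a functional Dux gene (Dux-/-), grown in 2iLIF, a medium with LIF and a pair of kinase inhibitors that holds such cells in a naive state. The transgene of each line encoded the fluorescent protein mCherry by itself, or mCherry fused with DUX or one of its derivatives, and all groups, mCherry by itself included, had the same Dux-/- background and received doxycycline at 0.25 ug/mL for 12 hours after a 24 hour recovery from plating. DUX is a transcription factor with a double homeodomain known to turn on transcripts of the 2-cell stage. The series lists 22 samples in 11 groups, of which 20 libraries in 10 groups of 2 replicates were used here. What is called the chimera table here has the control mCherry, FL Dux (the full-length protein) and the derivatives C1+14, C3+14, C1C3a, C1C3b and C1C3c. The other, called the deletion table, holds the same FL Dux libraries (no gene differed in reads) beside C12345delt14, deltC12345+14 and deltC12345delt14. The labels do not spell out C1 to C5, 14 or what separates a, b and c, and the group C3delt14 was not analysed here. Nothing in the labels says whether replicates were separate cultures or separate clones, so p-values measure only the spread between these samples, which may be technical.

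Claudins are membrane proteins that seal the space between epithelial cells at tight junctions, and each member sets which ions pass. Connexins assemble into hemichannels that dock between neighbouring cells as gap junctions and let small molecules through, and Gjb5 is known from skin and from the trophoblast of the placenta. Keratins form intermediate filaments from pairs of a type I and a type II chain, with Krt8 and Krt18 the pair of simple epithelia and of the outer layer of the blastocyst, and Krt6a, Krt10 and Krt13 known from stratified epithelia. In naive embryonic stem cells some of these genes are transcribed although the cells form no mature epithelium.

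Library totals ran from 21059953 to 40448890 reads, and 1 read was worth 0.620 to 1.81 of the deposited normalised reads, which are read counts divided by 1 size factor per library. The 2 tables were scaled separately by the authors, so levels were compared only within a table. Libraries were of 2 kinds: reads in 1548 high-copy genes, of whose 50-base words at least 50% lie in 20 or more genes, took 1.57% to 2.43% of the total in one kind and 0.272% to 0.427% in the other. The low kind held both libraries of C3+14 and of mCherry, deltC12345+14 replicate 2 and deltC12345delt14 replicate 1, and all other libraries were of the high kind. For FL Dux, C1C3a, C1C3b, C1C3c and C1+14 against mCherry the kind of library and the construct cannot be told apart. The same holds for C3+14 against FL Dux and for C3+14 against C1+14. Within 1 kind were C3+14 against mCherry, C1C3b against C1C3a and C12345delt14 against FL Dux. So were the comparisons of C1C3a, C1C3b and C1C3c with C1+14. The labelled cell type was checked on 10 embryonic stem cell markers, all of which were detected in every group, with a summed level of 110310 to 112060 normalised reads in mCherry and 47693 to 53673 in C1C3b, the lowest group. Of 8 fibroblast markers, Postn, Lum and Dcn were at 0 in both mCherry libraries, and the others had reads in that group, with a sum of 278 to 281. The summed level lay between 243 and 536 in all libraries of the chimera table. Because RNA was taken from whole cultures, fewer cells of a type and less RNA per cell cannot be told apart.

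Most members were barely transcribed in these cells. Of the 105 genes, 42 reached 10 normalised reads in 2 libraries of the chimera table and were tested there (13 claudins, 13 connexins and 16 keratins), and 35 were tested in the deletion table (12, 9 and 14). No read was found in any library for Cldn22, Cldn34b3, Krt2, Krt31, Krt32 and Krt39. The remaining members had reads but did not reach that level in 2 libraries of a table, among them Gja10, which was high in 1 library of each. Filtering on level means that a gene with reads only in 1 group had to be high there to be tested, so the counts below describe the tested genes and not all members. A gene was called when limma gave an adjusted p under 0.05 over all genes tested and a log2 fold change of at least 1, on the scale of log2 of the normalised reads plus 1, which understates the change of low genes.

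Per kilobase of exon, members with a high level in mCherry included Cldn4 at 632 normalised reads per kilobase, Gjb5 at 353, Krt42 at 334, Gjc1 at 258 and Cldn12 at 160. In deltC12345delt14 of the deletion table Cldn4 stood at 846 normalised reads per kilobase and Gjb5 at 608.

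Gjb5 lies on the minus strand of chromosome 4 at 127354809 to 127358181 and Gja4 on the same strand at 127311421 to 127314039 (GRCm38). Gja1 lies on the plus strand of chromosome 10 at 56377330 to 56402513. The upstream sequences of Gjb5, Gja1, Cldn4 and Krt13 are shown because these genes carry the main differences described below. They are the bases before the RefSeq start site (GRCm38.p6), 5′ to 3′ on the gene's own strand: chr4:127358182-127358414 (minus strand) for Gjb5, chr10:56377050-56377299 (plus strand) for Gja1, chr5:134946935-134947184 (minus strand) for Cldn4 and chr11:100121567-100121816 (minus strand) for Krt13, with bases inside a GENCODE gene model left out. Capitals mark matches to TGANTCA, a palindromic motif that includes the AP-1 site, searched on both strands.
Gjb5: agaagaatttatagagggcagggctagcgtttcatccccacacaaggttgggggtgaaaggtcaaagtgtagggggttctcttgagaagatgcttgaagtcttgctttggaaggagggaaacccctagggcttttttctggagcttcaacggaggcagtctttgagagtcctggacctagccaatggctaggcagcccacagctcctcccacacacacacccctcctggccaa
Gja1: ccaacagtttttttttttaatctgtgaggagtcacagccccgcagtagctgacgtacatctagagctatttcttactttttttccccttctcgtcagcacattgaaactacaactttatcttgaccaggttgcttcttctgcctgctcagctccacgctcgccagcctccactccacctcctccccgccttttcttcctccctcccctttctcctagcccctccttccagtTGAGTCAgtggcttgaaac
Cldn4: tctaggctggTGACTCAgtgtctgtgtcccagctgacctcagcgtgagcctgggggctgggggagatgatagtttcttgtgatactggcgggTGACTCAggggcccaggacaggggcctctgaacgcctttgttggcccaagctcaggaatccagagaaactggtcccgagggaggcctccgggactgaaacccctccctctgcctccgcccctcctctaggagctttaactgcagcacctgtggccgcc
Krt13: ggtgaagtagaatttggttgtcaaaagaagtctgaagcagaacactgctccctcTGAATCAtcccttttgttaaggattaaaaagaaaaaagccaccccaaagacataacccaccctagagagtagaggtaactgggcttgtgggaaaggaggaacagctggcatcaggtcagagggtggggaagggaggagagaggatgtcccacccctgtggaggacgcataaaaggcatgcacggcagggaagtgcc
Cldn4 held 2 matches, 240 and 158 bases before the start, Krt13 held 1 at 196 bases, Gja1 held 1 at 19 bases and Gjb5 held none. Among 32851 promoter windows of 250 bases, 6.75% held TGANTCA, against 9.72% of the 72 members with an entry. GATTNAATC, the core of the site known for DUX, was in none of these 4 windows, in 0.247% of all windows and in 1 of the 72 members. A match describes letters only.

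Gjb5 was highest in mCherry and C1+14 and low under full-length DUX. In the chimera table it had 618 and 599 normalised reads in mCherry, 406 and 574 in C1+14, 127 and 93.3 in C1C3c, 7.37 and 42.9 in FL Dux, 23.5 and 16.2 in C3+14, 14.4 and 2.83 in C1C3a, and 0 and 8.45 in C1C3b. The libraries of mCherry and C1+14 lay above all others, those of C1C3c between, and FL Dux, C3+14, C1C3a and C1C3b overlapped one another at the bottom. The mean of C1C3b (4.22 ± 5.97, SD, n = 2) was 144-fold under that of mCherry (608 ± 13.3). C1C3a, which does not enter the choice of this gene, was below C1+14 by 56.9-fold (limma log2 fold change -5.98, SE 0.94, adjusted p = 0.000131), and C3+14 was below C1+14 by 24.7-fold (adjusted p = 0.001004). C1C3c was 4.45-fold below C1+14, which did not pass by limma (adjusted p = 0.154) but was called by edgeR (-2.18) and by limma with a pseudocount of 8 (-2.07).

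In the deletion table, none of whose libraries were used to pick Gjb5, the gene had 9.06 and 53.6 normalised reads in FL Dux, 76.6 and 193 in C12345delt14, 743 and 763 in deltC12345+14, and 859 and 1234 in deltC12345delt14. No library of a group with C12345 intact reached the level of a group without it, whichever kind of library was compared. FL Dux was below deltC12345delt14 by 33.4-fold (limma log2 fold change -5.46, SE 0.74, adjusted p = 0.000824). C12345delt14 was below deltC12345delt14 by 7.77-fold (-3.07, SE 0.74, adjusted p = 0.0182), a call that was lost without C12345delt14 replicate 1 (-2.41) or without either replicate of deltC12345delt14 (-3.33 and -2.81). The 4.30-fold higher mean of C12345delt14 over FL Dux did not pass (adjusted p = 0.111) except without FL Dux replicate 2 (log2 fold change 3.61, against 2.39 with all libraries), and deltC12345+14 and deltC12345delt14 differed by 1.39-fold (adjusted p = 1.00).

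Gja4, known from endothelium and the follicle around the oocyte, had its highest level of the chimera table in C1+14. It had 25.1 and 18.0 normalised reads in mCherry and 38.7 and 45.3 in C1+14 and lay above mCherry there without overlap. FL Dux had 0 and 1.19 normalised reads, and the fall against mCherry passed (-3.91, SE 0.61, adjusted p = 0.000103), as did those of C3+14 (-1.73, adjusted p = 0.0245) and C1C3a (-1.78, adjusted p = 0.0214). For the deletion constructs Gja4 had 69.8 and 68.8 normalised reads in deltC12345delt14, 61.0 and 79.0 in deltC12345+14, 2.29 and 5.74 in C12345delt14, and 0 and 1.49 in FL Dux. Both constructs with C12345 fell against deltC12345delt14 (adjusted p = 0.00374 for C12345delt14 and 0.000387 for FL Dux).

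Other connexins fell as well. Gja1, the most widely expressed connexin, had 754 and 813 normalised reads in mCherry, 546 and 360 in C1+14, and between 30.0 and 103 in the 10 libraries of FL Dux, C3+14, C1C3a, C1C3b and C1C3c, with a wide gap between. It fell in FL Dux by 12.6-fold (limma log2 fold change -3.63, SE 0.28, adjusted p = 1.49e-07), in C3+14 by 18.0-fold (-4.14, adjusted p = 4.18e-08), in C1C3a by 12.2-fold (-3.60, adjusted p = 1.36e-07) and in C1C3c by 8.51-fold (-3.09, adjusted p = 2.57e-06). Against C1+14 all of C3+14, C1C3a, C1C3b and C1C3c were lower. The span was smaller in the deletion table: Gja1 had 200 and 203 normalised reads in deltC12345delt14, 278 and 320 in deltC12345+14, 74.3 and 129 in C12345delt14 and 74.3 and 80.4 in FL Dux. FL Dux was lower than deltC12345delt14 by 2.61-fold (-1.37, SE 0.31, adjusted p = 0.00735).

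Gjc1, known from the early heart and the embryo, had 1332 and 1246 normalised reads in mCherry, 690 and 603 in C1+14, 601 and 739 in C1C3c, 321 and 283 in C1C3b, and 147 to 206 in the 6 libraries of FL Dux, C3+14 and C1C3a. Replicates were close for this gene, and its fall passed in FL Dux (-2.90, SE 0.19, adjusted p = 2.71e-08), C3+14 (-2.69, adjusted p = 5.75e-08) and C1C3a (-2.97, adjusted p = 1.73e-08). C1C3c fell by a log2 change of -0.95 (adjusted p = 0.00118), just short of the fold that a call needed.

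A second group of connexins rose. Gja3, a connexin of the lens, had 0.660 and 1.72 normalised reads in mCherry, 54.5 and 70.2 in FL Dux, 18.4 and 14.6 in C3+14, 10.5 and 16.9 in C1C3b, and 1.42 to 6.76 in the libraries of C1C3a, C1C3c and C1+14. It was called higher in FL Dux (log2 fold change 4.89, SE 0.62, adjusted p = 1.63e-05) and in C3+14 (3.03, adjusted p = 0.000795). It was lower in C3+14 than in FL Dux (-1.85, adjusted p = 0.0283), a call lost when either replicate of either group was left out (-2.03 to -1.67), with a pseudocount of 0.1 (-1.91) and without the filter. The deletion table gave 67.0 and 87.9 normalised reads in FL Dux, 24.0 and 30.3 in C12345delt14, 2.10 and 0.718 in deltC12345+14 and 7.39 and 0.829 in deltC12345delt14. Both FL Dux (4.31, SE 0.77, adjusted p = 0.00257) and C12345delt14 (2.84, adjusted p = 0.0268) were higher than deltC12345delt14.

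**Figure D1:**
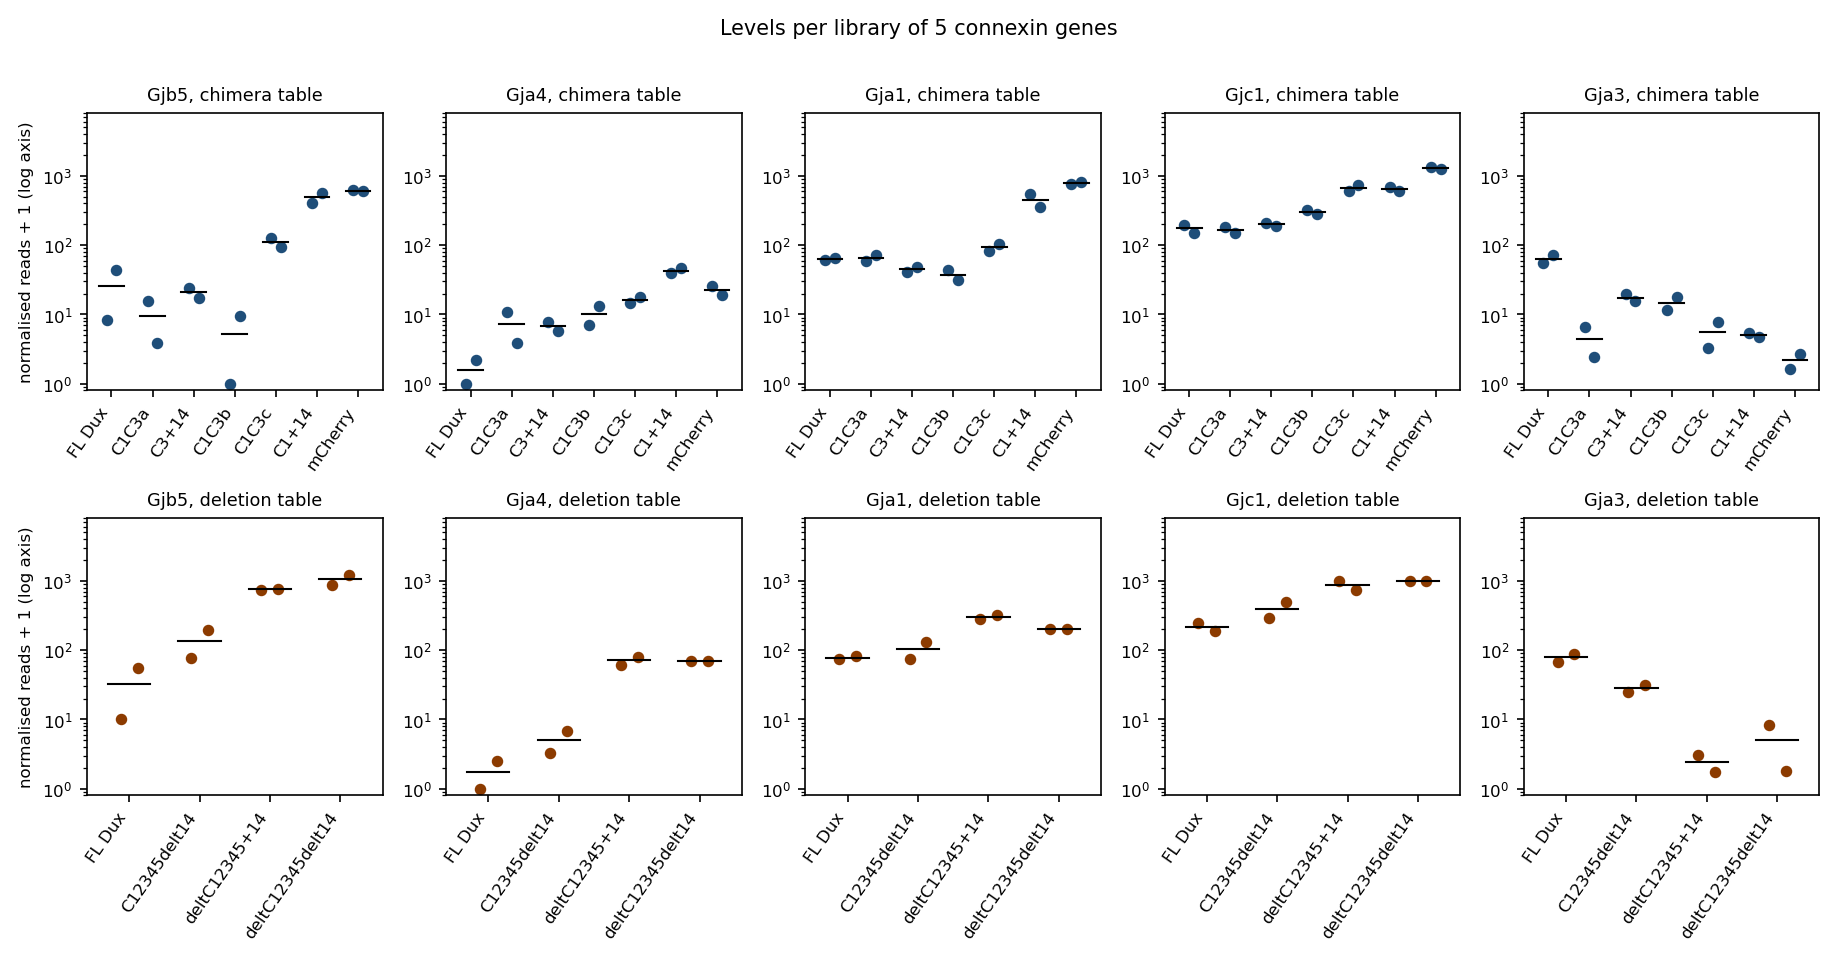
Normalised reads plus 1 (log axis) of Gjb5, Gja4, Gja1, Gjc1 and Gja3 in each library (points) with the mean of the 2 replicates (lines), chimera table above and deletion table below; the tables were scaled separately. Gjb5, Gja1 and Gjc1 are highest in mCherry in the upper row, Gja4 in C1+14, and Gja3 is highest in FL Dux in both rows.

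Gjb6 and Gjb2, connexins of the inner ear and skin, lie beside Gja3 on chromosome 14. Gjb6 had no read in either library of FL Dux or mCherry, 50.3 and 27.5 normalised reads in C3+14, 45.6 and 57.3 in C1C3b, 10.6 and 22.3 in C1C3c, 4.39 and 0 in C1+14, and 1.11 and 0 in C1C3a. C3+14 was at least 17.1-fold above mCherry, taking 3 reads per library as the floor (limma adjusted p = 4.57e-05), and C1C3b was above C1C3a, which had 1 read in all (adjusted p = 8.61e-05). Gjb6 thus had reads in both libraries of C3+14, C1C3b and C1C3c, few in C1C3a and C1+14, and none in full-length DUX. C3+14 was at least 9.74-fold above FL Dux (limma adjusted p = 0.000137), though these groups also differ in kind of library. Gjb2 had 14.5 and 13.7 normalised reads in mCherry, 2.92 and 0 in C1+14 and 35.4 and 29.8 in FL Dux. Across the deletion constructs Gjb2 had 0 and 2.49 normalised reads in deltC12345delt14, 4.57 and 9.02 in C12345delt14 and 43.5 and 37.2 in FL Dux, the only group through which it passed the filter there, so these values are a description.

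Gja6 had no read in mCherry and 33.5 and 51.8 normalised reads in C3+14, its highest group, which was at least 18.7-fold above mCherry (limma adjusted p = 9.06e-06) and 6.25-fold above FL Dux (adjusted p = 0.00544). Gja5, a connexin of the atrium and arteries that shares sequence with another locus, reached 21.8 and 30.8 normalised reads in C3+14. Gja10, known from the retina, had 449 normalised reads in C1C3b replicate 2 and 2.63 in replicate 1, so its group mean rests on 1 library.

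Against mCherry, connexins were called higher and lower in these numbers: 2 and 6 of 13 in FL Dux, 1 and 2 in C1+14, 5 and 6 in C3+14, 2 and 6 in C1C3a, 2 and 4 in C1C3c, and 5 and 5 in C1C3b. In all 3 families together 16 of 42 tested members were called in FL Dux, 26 in C3+14, 26 in C1C3a and 21 in C1C3c. The background was high: of all 21584 genes tested, 44.2% were called in FL Dux (24.5% higher and 19.6% lower), 47.3% in C3+14 (29.6% and 17.7%), 46.4% in C1C3a (27.4% and 19.0%) and 28.8% in C1C3c (18.3% and 10.5%). Of the 42 tested members the share called was 38.1% in FL Dux, 61.9% in C3+14, 61.9% in C1C3a and 50% in C1C3c, below that of all genes in FL Dux and above it in the other 3, differences that were not tested. The members' counts include Gjb5, Cldn4 and Krt13. In C1C3b, 28 members were called against 44.7% of all genes (27.6% higher and 17.1% lower), and in C1+14, 11 members against 18.3% (12.4% and 5.95%), and nothing is read from those 2 counts. The comparisons share the mCherry libraries, so agreement among them is not independent.

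**Figure D2:**
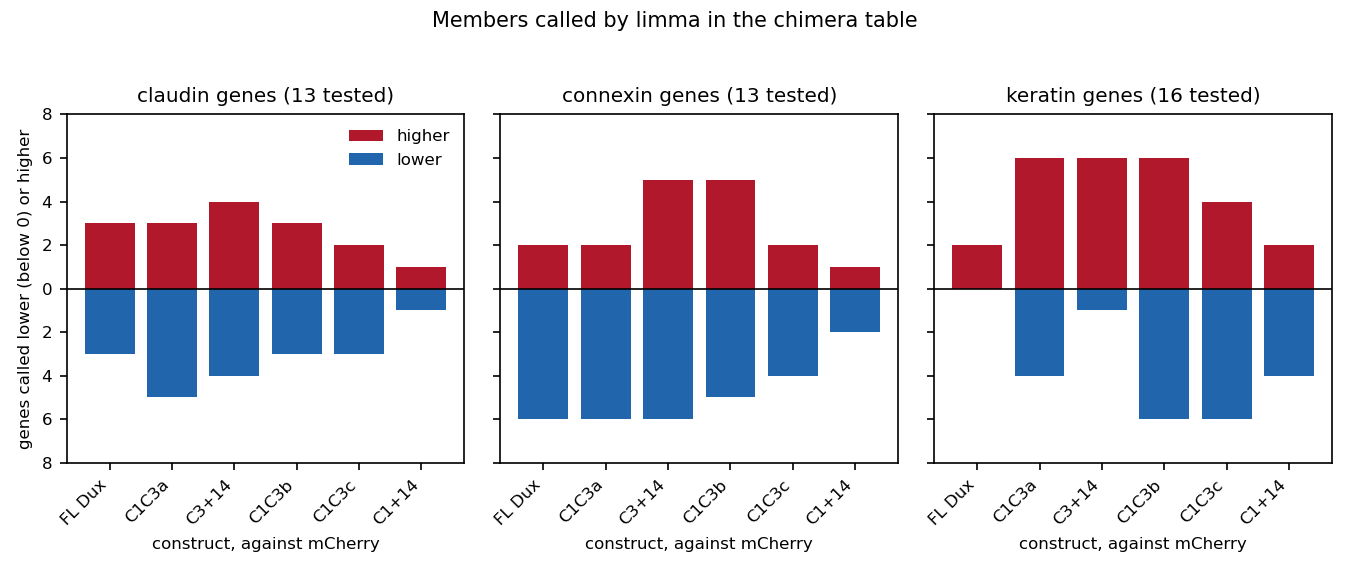
Number of tested members of each family called higher (above 0) or lower (below 0) than mCherry by limma in each construct of the chimera table. Claudins and connexins were called in both directions in every construct, and no tested keratin was called lower in FL Dux.

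Claudins showed the same mixture. Cldn4, a barrier-forming claudin of epithelia, had 1139 and 1156 normalised reads in mCherry, 167 and 337 in C1+14, 136 and 51.4 in C1C3c, 60.4 and 96.4 in FL Dux, 26.8 and 19.4 in C3+14, 25.5 and 34.0 in C1C3a, and 4.39 and 7.51 in C1C3b. The mCherry libraries lay above all others and those of C1C3b below all others. The mean of C1C3b (5.95 ± 2.21, SD, n = 2) was 193-fold under that of mCherry (1148 ± 11.9). In comparisons without mCherry or C1C3b, C1C3a was lower than C1+14 by 8.49-fold (limma log2 fold change -2.97, SE 0.47, adjusted p = 0.000133). C3+14 was lower than FL Dux by 3.39-fold (-1.70, adjusted p = 0.0113), though not without FL Dux replicate 2 (-1.37) or C3+14 replicate 2 (-1.48).

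Cldn4 was spread likewise in the deletion table, where it had 1569 and 1504 normalised reads in deltC12345delt14, 1020 and 1075 in deltC12345+14, 110 and 285 in C12345delt14, and 74.3 and 121 in FL Dux. The groups without C12345 lay above the others by a wide gap. FL Dux was lower than deltC12345delt14 by 15.8-fold (-4.01, SE 0.42, adjusted p = 0.000252) and C12345delt14 by 7.79-fold (-3.11, SE 0.42, adjusted p = 0.00159).

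Cldn3, a close relative of Cldn4 and its neighbour on chromosome 5 (Cldn4 at 134945119 to 134946934, minus strand; Cldn3 at 134986214 to 134987472, plus strand), had 34.3 and 54.0 normalised reads in mCherry and 40.2 and 47.1 in C1+14, where Cldn4 was low. It fell in FL Dux (16.2 and 10.7; -1.63, adjusted p = 0.0345), C3+14 (5.03 and 8.10; -2.57, adjusted p = 0.00257), C1C3a (14.4 and 2.83; -2.52, adjusted p = 0.00299) and C1C3c (12.1 and 8.79; -1.96, adjusted p = 0.0196). It fell in the deletion table from 190 and 198 normalised reads in deltC12345delt14 to 19.9 and 13.4 in FL Dux (-3.49, SE 0.44, adjusted p = 0.000582). Its model overlaps the antisense gene Wbscr25, and whether the authors' counting used the strand is not given in the sources used here.

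Cldn6, a claudin of the early embryo and of pluripotent cells, had 53.44 and 60.05 normalised reads in mCherry and 47.5 and 54.6 in C1+14, against 3.38 to 19.4 in the other 10 libraries of the chimera table. The fall was largest in C1C3c (6.03 and 3.38; -3.38, SE 0.45, adjusted p = 6.81e-05) and passed in FL Dux (-2.68, adjusted p = 0.000191), C3+14 (-1.53, adjusted p = 0.00933) and C1C3a (-2.07, adjusted p = 0.00137). For Cldn6 the deletion table gave 243 and 137 normalised reads in deltC12345delt14, 96.8 and 152 in deltC12345+14, 18.3 and 32.8 in C12345delt14, and 7.25 and 13.4 in FL Dux (-4.07 for FL Dux against deltC12345delt14, adjusted p = 0.000619). Cldn7, another epithelial claudin, passed in no comparison with mCherry, where it had 15.2 and 10.3 normalised reads, but fell in the deletion table from 82.9 and 87.0 in deltC12345delt14 to 16.3 and 4.47 in FL Dux (-3.14, adjusted p = 0.00317).

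Cldn12, which is expressed in many tissues, ranged from 371 to 1403 normalised reads over the chimera libraries. It had 673 and 683 normalised reads in mCherry, 371 and 502 in FL Dux, 1123 and 1114 in C3+14, 721 and 627 in C1C3a, 1403 and 1309 in C1C3b, 948 and 1085 in C1C3c and 804 and 835 in C1+14. It was called in none of the comparisons with mCherry, the mean of C1C3b being about the fold that a call needs above it. Cldn12 was higher in C3+14 than in FL Dux (1.37, SE 0.15, adjusted p = 1.68e-05), a direction opposite to that of Cldn4 in the same comparison.

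Cldn11, the claudin of myelin and of the testis, and Cldn1, that of the skin barrier, rose from almost nothing. Cldn11 had 0.660 and 0.858 normalised reads in mCherry, 1.46 and 4.96 in C1+14, 13.1 to 21.1 in the 8 libraries of FL Dux, C3+14, C1C3a and C1C3c, and 57.0 and 94.8 in C1C3b. It rose in FL Dux (log2 fold change 3.15, SE 0.51, adjusted p = 0.000148), C3+14 (3.49, adjusted p = 5.79e-05), C1C3a (3.33, adjusted p = 8.74e-05) and C1C3c (3.25, adjusted p = 0.000244). C1C3b was higher than C1C3a by 4.56-fold (2.08, adjusted p = 0.00400). Cldn1 had 69.3 and 73.2 normalised reads in C1C3b, 40.2 and 29.2 in C3+14, 6.78 and 22.3 in C1C3c, 5.12 and 5.58 in C1+14, 5.53 and 1.42 in C1C3a, and at most 1.47 in any library of FL Dux or mCherry. C1C3b was 20.5-fold above C1C3a (4.18, SE 0.69, adjusted p = 0.000241) and C3+14 was above FL Dux (4.49, adjusted p = 0.000247).

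Of 13 claudins tested, 3 were called higher and 3 lower than mCherry in FL Dux, 1 and 1 in C1+14, 4 and 4 in C3+14, 3 and 5 in C1C3a, 2 and 3 in C1C3c, and 3 and 3 in C1C3b. The shares of all genes called higher and lower were 24.5% and 19.6% in FL Dux, 12.4% and 5.95% in C1+14, 29.6% and 17.7% in C3+14, 27.4% and 19.0% in C1C3a, 18.3% and 10.5% in C1C3c, and 27.6% and 17.1% in C1C3b. The median log2 fold change of the tested claudins was -0.65 in FL Dux, -0.05 in C3+14, -0.68 in C1C3a and 0.03 in C1C3c, beside 0.09, 0.23, 0.12 and 0.01 over all genes tested. For connexins the medians were -0.58, 0.22, -0.01 and -0.46, and for keratins 0.69, 0.90, 0.73 and -0.80. These lists were formed with results in view and are given as a description.

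**Figure D3:**
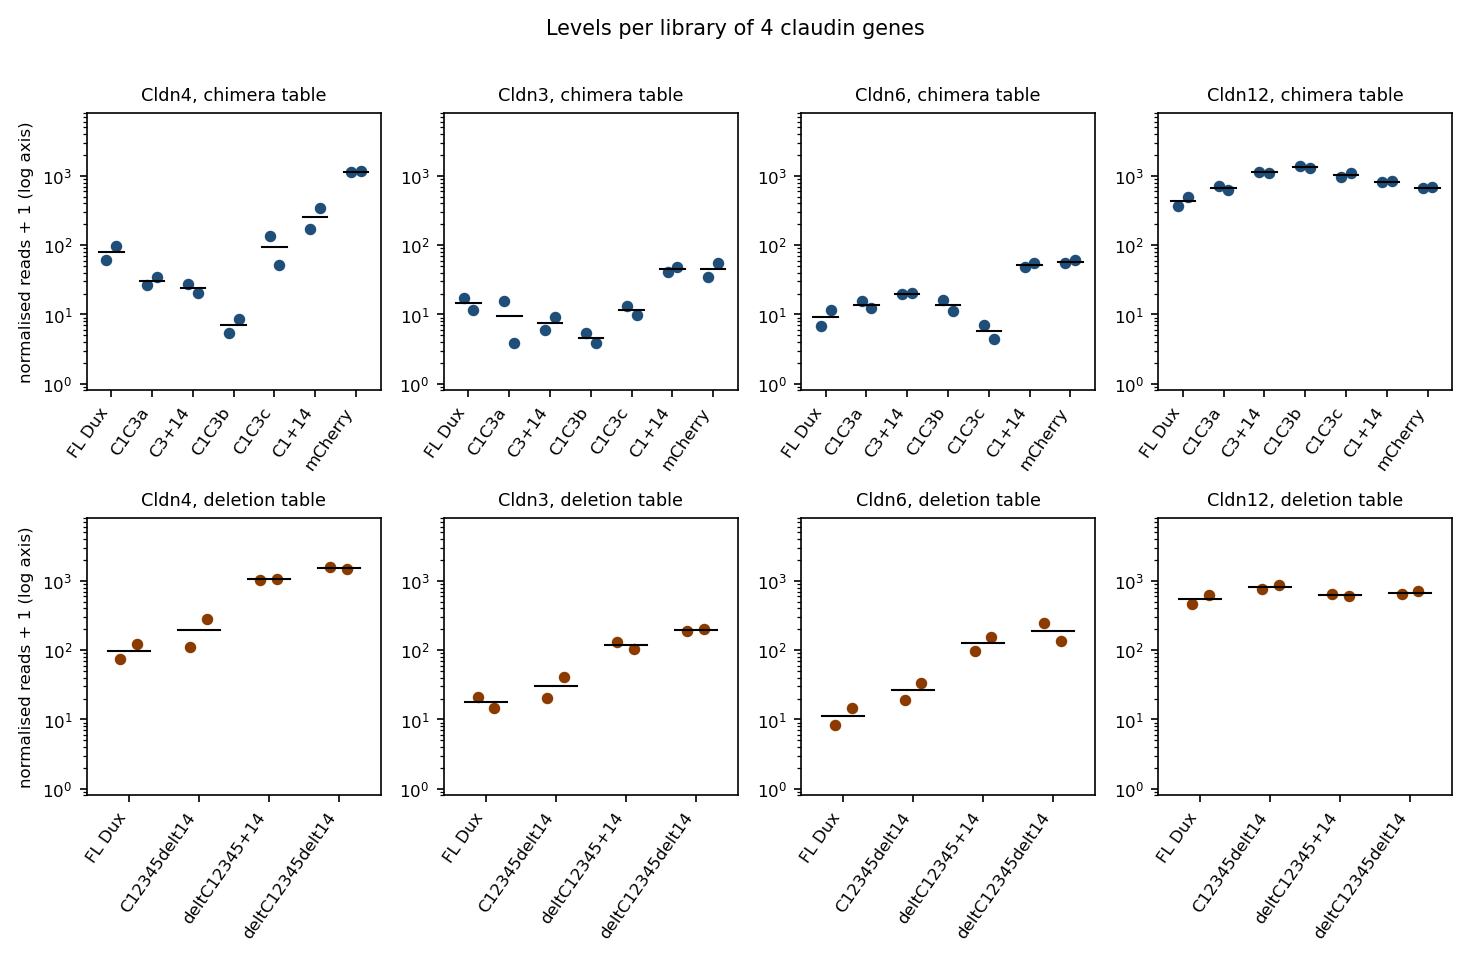
Normalised reads plus 1 (log axis) of Cldn4, Cldn3, Cldn6 and Cldn12 in each library (points) with the mean of the 2 replicates (lines), chimera table above and deletion table below; the tables were scaled separately. Cldn4 drops in C1+14, where Cldn3 and Cldn6 stay at the level of mCherry, and Cldn12 is within a narrower range than they are.

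Among keratins, Krt13, a mucosal keratin of stratified epithelia, differed from Gjb5 and Cldn4 in FL Dux, where it stayed near mCherry. Like Gjb5 and Cldn4, Krt13 lay below mCherry in the libraries of C3+14, C1C3a, C1C3b, C1C3c and C1+14. It had 58.06 and 60.05 normalised reads in mCherry, 75.1 and 63.1 in FL Dux, 43.2 and 14.2 in C1C3a, 12.3 and 40.4 in C1C3b, 25.1 and 22.7 in C3+14, 10.6 and 3.38 in C1C3c, and 0.731 and 1.24 in C1+14, where each library held 1 or 2 reads. C1+14 lay below all others, and FL Dux and mCherry lay together at the top. C3+14 and FL Dux differed by 2.89-fold without passing (-1.49, adjusted p = 0.0830), though it passed with a pseudocount of 8 (-1.27), under quantile normalization (-1.81) and with only those 2 groups fitted.

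No library of the deletion table had been used to pick Krt13, and there it had 92.4 and 78.9 normalised reads in FL Dux, 72.0 and 45.1 in C12345delt14, 23.1 and 14.4 in deltC12345+14 and 22.2 and 29.8 in deltC12345delt14. FL Dux was higher than deltC12345delt14 by 3.30-fold (1.69, SE 0.45, adjusted p = 0.0143), a call lost without FL Dux replicate 1 (1.58) or deltC12345delt14 replicate 1 (1.49). So Krt13 was higher in FL Dux than in deltC12345delt14, while against mCherry the means of FL Dux and mCherry differed by 1.17-fold, and its sign there turned under quantile normalization (log2 -0.21).

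Krt6a and Krt6b, keratins of the hair follicle and of wounded skin, were absent in the control and appeared with some derivatives. Krt6b had 315 and 275 normalised reads in C3+14, 231 and 271 in C1C3b, 71.9 and 22.7 in C1C3a, 3.77 and 6.09 in C1C3c, 2.95 and 3.57 in FL Dux, and none in C1+14 or mCherry. C3+14 was at least 129.7-fold above mCherry (adjusted p = 3.15e-08) and was also above FL Dux, whose libraries held 2 and 3 reads (adjusted p = 2.35e-06). C1C3b was 5.31-fold above C1C3a (2.60, adjusted p = 0.00120). Krt6a followed with 213 and 194 normalised reads in C3+14, 63.1 and 62.9 in C1C3b and 46.5 and 5.66 in C1C3a, against 2.95 and 2.38 in FL Dux. Krt6a and Krt6b share 57.2% and 50.1% of their 50-base words with other genes and each overlaps a gene on the opposite strand, so the division of reads between them is uncertain. Neither was tested in the deletion table, where no library had more than 4.47 normalised reads of Krt6b.

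Krt8 and Krt18, partners in simple epithelia, were called in different constructs against mCherry and in the same constructs against C1+14. Krt8 had 227 and 238 normalised reads in mCherry, 614 and 556 in C1C3a, 496 and 479 in C3+14, 470 and 358 in FL Dux, 233 and 216 in C1C3b, 168 and 261 in C1+14, and 161 and 139 in C1C3c. It rose in C1C3a by 2.52-fold (1.33, SE 0.21, adjusted p = 0.000126) and in C3+14 by 2.10-fold (1.06, adjusted p = 0.000723), the latter short of the fold for a call under quantile normalization (0.99). Krt18 had 125 and 125 normalised reads in mCherry, 149 and 161 in C1C3a, 204 and 201 in C3+14, and 346 and 125 in FL Dux, none of which passed against mCherry. It was lower in C1C3c at 27.1 and 23.0 (-2.28, SE 0.47, adjusted p = 0.00157), and the levels were 27.0 and 49.6 in C1+14 and 18.4 and 42.2 in C1C3b. Against C1+14, C3+14 was higher for Krt8 (1.21, adjusted p = 0.000290) and Krt18 (2.43, adjusted p = 0.000578), and so was C1C3a (1.48, adjusted p = 6.25e-05, and 2.05, adjusted p = 0.00213). The Krt8 call of C3+14 against C1+14 was lost without C1+14 replicate 1 (0.90). Both genes were lower in C1C3b than in C1C3a, Krt8 by 2.61-fold (adjusted p = 0.000142) and Krt18 by 5.12-fold (adjusted p = 0.000732). In the deletion table Krt8 was 2.50-fold higher in FL Dux than in deltC12345delt14 (1.33, SE 0.26, adjusted p = 0.00395), and 29.7% of its 50-base words occur elsewhere, Krt8-ps included.

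Krt42, the highest keratin per kilobase in mCherry, had 532 and 645 normalised reads there and 92.7 to 356 in the 12 libraries of the constructs. It was called lower in C3+14, C1C3a and C1C3c, and FL Dux at 284 and 299 missed the call (-1.004, adjusted p = 0.0522). Krt42 passed in no comparison of the deletion table, with 350 and 374 normalised reads in FL Dux and 202 and 370 in deltC12345delt14.

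Krt10, a keratin of differentiating epidermis, and Krt222 were highest in C1C3b and C1C3c. Krt10 had 421 and 404 normalised reads in C1C3b and 246 and 394 in C1C3c, against 56.7 and 63.5 in mCherry, 68.0 and 71.3 in C1+14, and 76.2 to 126 in the 6 libraries of FL Dux, C3+14 and C1C3a. It rose in C1C3c by 5.33-fold (2.36, SE 0.28, adjusted p = 2.52e-05). C1C3b was above C1C3a by 3.91-fold (1.98, adjusted p = 6.48e-05), and C1C3c was above C1+14 (2.15, adjusted p = 0.000359). Krt222 had 127 and 85.4 normalised reads in C1C3b, 76.9 and 128 in C1C3c, 12.4 and 32.2 in C1+14, 5.03 and 25.9 in C3+14, and at most 15.6 elsewhere in the chimera table. C1C3c rose against mCherry by 24.9-fold (4.29, SE 0.73, adjusted p = 0.000419). In the deletion table Krt10 had 142 and 167 normalised reads in C12345delt14 and 114.2 and 95.3 in FL Dux against 56.6 and 35.6 in deltC12345delt14. It was called higher in C12345delt14 (1.75, SE 0.35, adjusted p = 0.00876) and in FL Dux (1.20, adjusted p = 0.0207). The first call was lost without C12345delt14 replicate 1 (1.87) or deltC12345delt14 replicate 2 (1.43). The second was lost without FL Dux replicate 1 (1.07) or deltC12345delt14 replicate 2 (0.87), under quantile normalization (0.90) and with only those 2 groups fitted (1.20). Krt10 overlaps the gene Gm11940 on the opposite strand.

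Krt19, a simple-epithelial keratin, had 112 and 92.6 normalised reads in mCherry, 149 and 171 in FL Dux, 111 and 112 in C3+14, 82.6 and 203 in C1+14, and 11.4 to 44.3 in the 6 libraries of the C1C3 chimeras. It fell in C1C3a (-1.57, SE 0.46, adjusted p = 0.00946) and C1C3c (-1.56, adjusted p = 0.0146). In the deletion table Krt19 fell in FL Dux from 350 and 622 to 183 and 214 (-1.23, SE 0.35, adjusted p = 0.0182). In the chimera table FL Dux lay above mCherry instead, a difference that did not pass (0.64, adjusted p = 0.247). Krt23 rose in C1C3a, with 46.5 and 75.0 normalised reads against 0.660 and 0.858 in mCherry (5.10, SE 0.96, adjusted p = 0.000446).

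**Figure D4:**
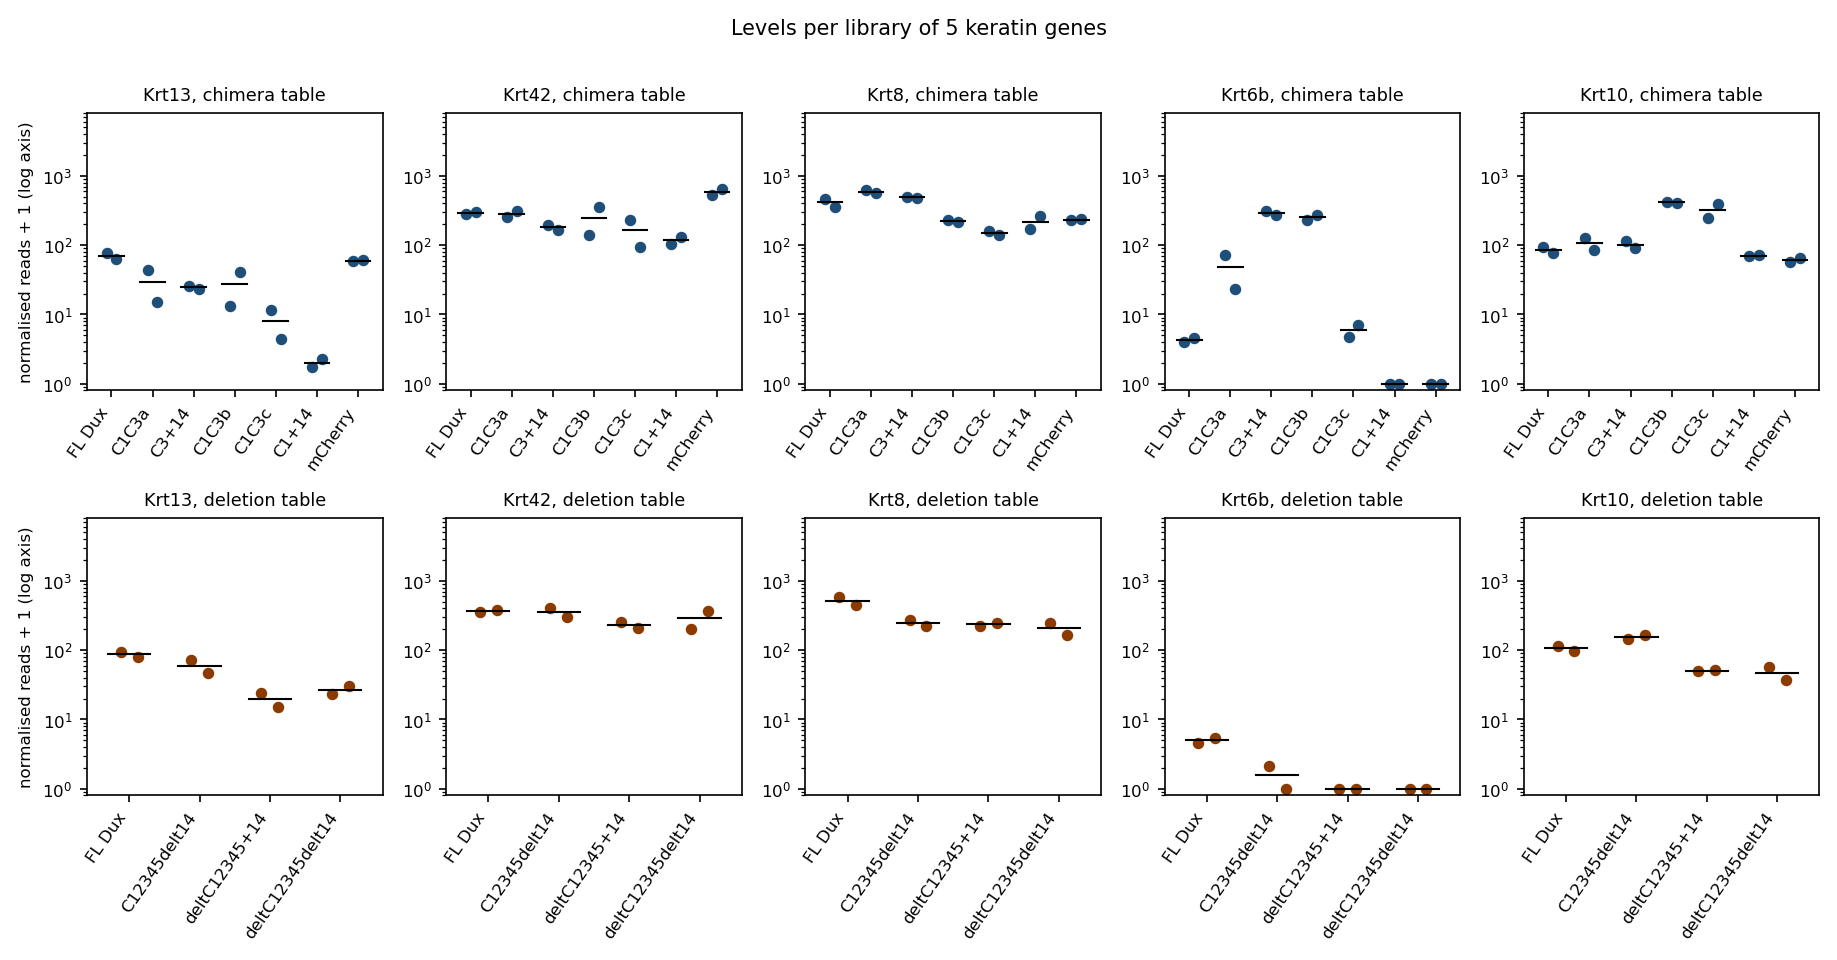
Normalised reads plus 1 (log axis) of Krt13, Krt42, Krt8, Krt6b and Krt10 in each library (points) with the mean of the 2 replicates (lines), chimera table above and deletion table below; the tables were scaled separately. Krt13 is lowest in C1+14, Krt6b is high in C3+14 and C1C3b and at 0 in mCherry, and Krt10 is highest in C1C3b and C1C3c.

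Of 16 keratins tested, 2 were called higher and 0 lower than mCherry in FL Dux, 2 and 4 in C1+14, 6 and 1 in C3+14, 6 and 4 in C1C3a, 4 and 6 in C1C3c, and 6 and 6 in C1C3b. Among all genes these shares were 24.5% higher and 19.6% lower in FL Dux, 12.4% and 5.95% in C1+14, 29.6% and 17.7% in C3+14, 27.4% and 19.0% in C1C3a, 18.3% and 10.5% in C1C3c, and 27.6% and 17.1% in C1C3b. The 2 higher in FL Dux were Krt20 and Krt6b. For Krt6b the FL Dux libraries held 2 and 3 reads and those of mCherry 0, so that call rests on values at the floor. Krt79 was called higher in C3+14 and C1C3a. For 3 tested members, Cldn12, Cldn5 and Cldn7, no comparison with mCherry gave a call.

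**Figure D5:**
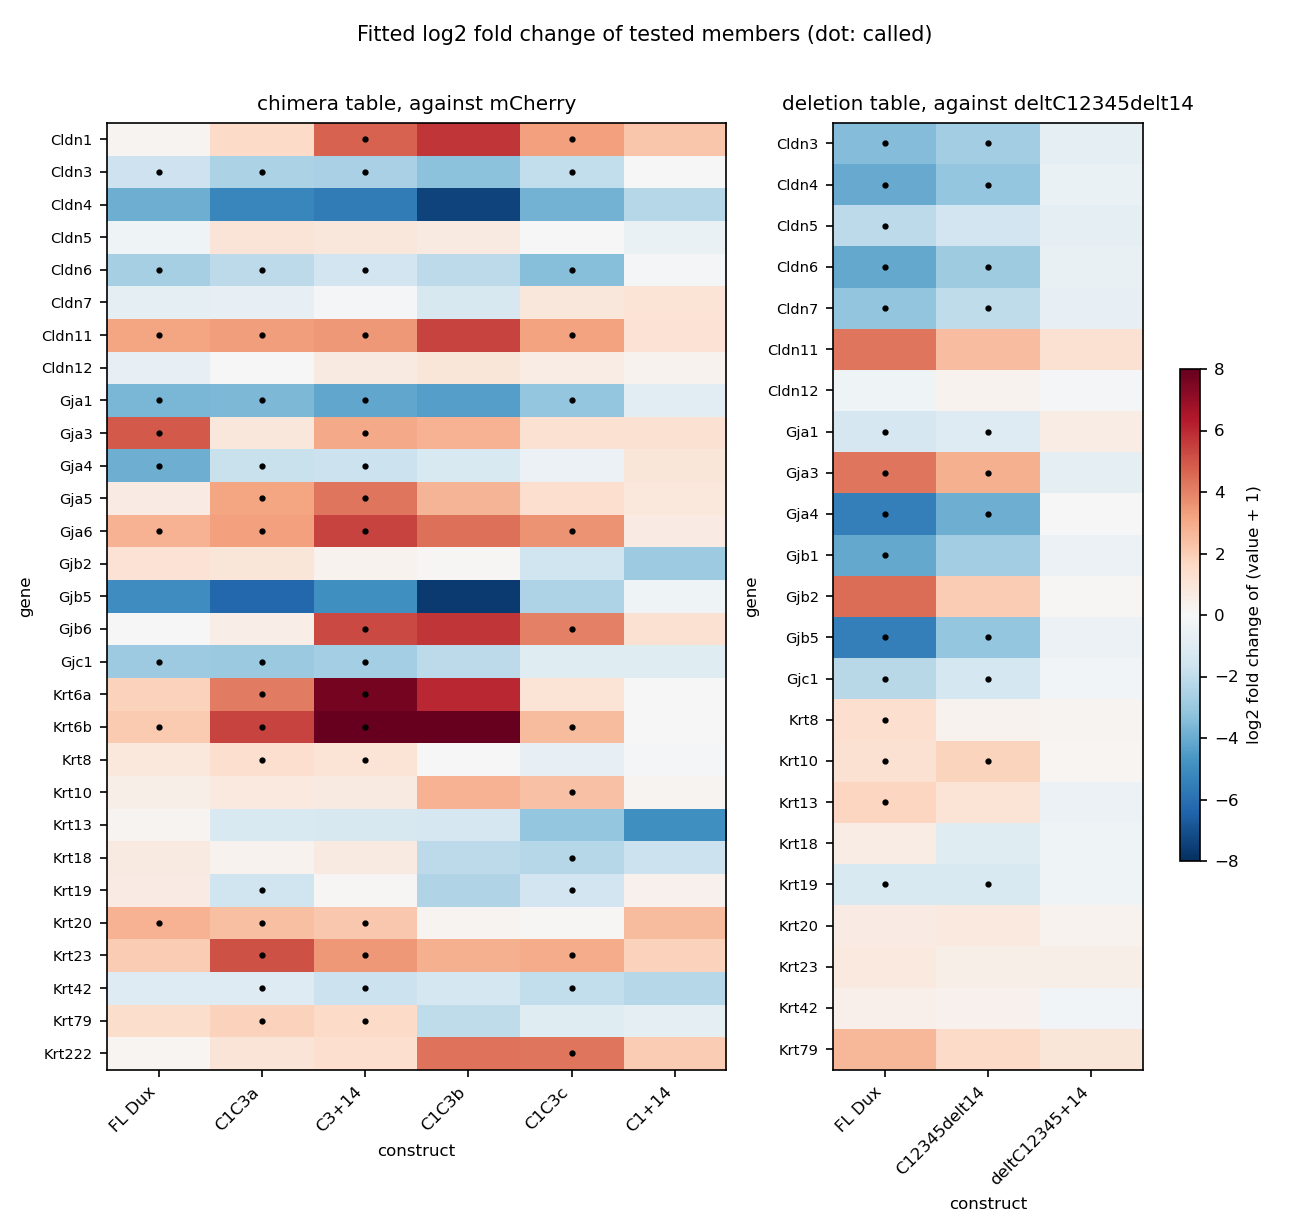
Fitted log2 fold change of normalised reads plus 1 for the tested members that the text names, against mCherry in the chimera table (left) and against deltC12345delt14 in the deletion table (right), with a dot where limma called the difference; no calls are marked for C1+14 and C1C3b, for Gjb5, Cldn4 and Krt13 against mCherry, or for Cldn11, Gjb2 and Krt79 in the deletion table, and a gene without reads in the reference has a fitted value that is no bound. Gjb5, Gja1 and Cldn4 are lower in most constructs, and Krt6a and Krt6b are the highest in C3+14 and C1C3b.

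Comparisons between constructs that differ in named parts gave further differences. C3+14 against C1+14 called 17 members higher and 10 lower (44.6% of all genes were called, 25.9% higher and 18.7% lower), C1C3a against C1+14 called 14 and 14 (40.8%, 23.4% and 17.3%). C1C3b against C1+14 called 12 and 13 (28.9%, of which 17.9% higher), and C1C3c against C1+14 called 5 and 4 (7.83%, 5.37% and 2.46%). All 9 calls of C1C3c against C1+14 were lost when only those 2 groups were fitted, which called 0 of all 21584 genes. Among them Gja1 (-2.27, SE 0.28, adjusted p = 0.000224), Cldn6 (-3.23, adjusted p = 0.000688) and Krt10 differed most clearly. C1C3b against C1C3a called 10 members higher and 7 lower (35.6%, 18.3% and 17.3%), and C3+14 against FL Dux called 9 higher and 3 lower (26.3%, 16.8% and 9.54%), with Cldn4 and Gja3 among the lower ones.

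FL Dux against deltC12345delt14 called 7 members higher and 16 lower among 35 tested, beside 39.1% of all 19833 genes (20.3% higher and 18.8% lower). The 7 higher include Cldn11, Gjb2 and Krt79, which reached 10 normalised reads in FL Dux only and so were tested because they were high there. All 9 connexins tested were called, 7 of them lower, with Gjb5, Gja4, Gja1, Gjc1 and Gjb1 among these. Of 12 claudins tested 6 were called lower and 1, Cldn11, higher, and of 14 keratins 3 were lower and 4 higher. The medians were -2.66 for connexins, -1.73 for claudins and 0.51 for keratins, beside 0.11 over all genes, and the connexin median was -2.20 with genes at 0 set to their bound. C12345delt14 against deltC12345delt14 called 3 members higher and 15 lower (22.0% of all genes, 12.6% and 9.4%), with medians of -2.12 for connexins, -1.37 for claudins and -0.16 for keratins, beside 0.08 over all genes. That count fell when C12345delt14 replicate 1 or either replicate of deltC12345delt14 was left out. The share of all genes called in those fits is not given, so nothing about the members is read from the fall.

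C12345delt14 and FL Dux, whose names differ in 14, gave no call among the members by limma. Of all 19833 genes, limma called 190, or 0.958% (0.338% higher and 0.62% lower), and 4935 had an unadjusted limma p under 0.05. DESeq2 called 2 members, beside 2.7% of all genes higher and 3.82% lower. By edgeR 0 members were called, beside 0.908% and 1.45%. Deleting C12345 with or without 14, deltC12345+14 against deltC12345delt14, gave no call among the members by limma, DESeq2 or edgeR. Of all genes, limma called 0.0%, with 543 genes at an unadjusted limma p under 0.05. DESeq2 called 0.0151% of all genes higher and 0.00504% lower, and edgeR 0% and 0%. The groups deltC12345+14 and deltC12345delt14 each held libraries of both kinds, while all those of FL Dux and C12345delt14 were of the high kind. These counts do not show that the groups are alike: for Gjb5 the difference between C12345delt14 and FL Dux was 2.39 with an SE of 0.74, and for Krt8 it was -1.06 with an SE of 0.26 (limma adjusted p = 0.0792).

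Junction genes outside the 3 families were called in both directions against mCherry, as were all genes. Shares of all genes called higher and lower than mCherry were 24.5% and 19.6% in FL Dux, 12.4% and 5.95% in C1+14, and 29.6% and 17.7% in C3+14. They were 27.4% and 19.0% in C1C3a, 18.3% and 10.5% in C1C3c, and 27.6% and 17.1% in C1C3b. In FL Dux against deltC12345delt14 they were 20.3% and 18.8%. No difference of a junction, filament, regulator or marker list from these shares was tested. Of 20 partners of claudins at tight junctions, such as scaffolds and occludin, 2 were called higher and 5 lower than mCherry in FL Dux, 7 and 1 in C1+14, 6 and 3 in C3+14, 4 and 3 in C1C3a, 6 and 2 in C1C3c and 9 and 3 in C1C3b. In FL Dux against deltC12345delt14 the numbers were 0 and 5. Ocln fell there by a log2 change of -1.55 and the scaffold gene Tjp3 by -2.25. Of 17 adherens junction and desmosome genes tested, 2 and 3 were called in FL Dux against mCherry, 5 and 1 in C1+14, 3 and 4 in C3+14, 2 and 5 in C1C3a, 3 and 2 in C1C3c and 3 and 4 in C1C3b. In FL Dux the log2 change of Perp, a desmosomal membrane protein, was -2.87 and that of Pkp3, a plakophilin, 2.54. Panx1, a channel protein related in form to connexins and the only pannexin tested of 3, was lower in FL Dux (-2.10), C3+14 (-2.30), C1C3a (-2.65) and C1C3c (-1.02) and, against deltC12345delt14, in FL Dux (-1.64) and C12345delt14 (-1.80). Of 10 other intermediate filament genes, 1 was higher and 2 lower in FL Dux, none in C1+14, 1 and 3 in C3+14, 0 and 1 in C1C3a, 0 and 2 in C1C3c and 1 and 3 in C1C3b. The filament linker Plec was at -1.24 in FL Dux.

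Among 16 regulators of epithelial and mesenchymal identity, 3 were higher and 6 lower than mCherry in FL Dux, 1 and 2 in C1+14, 5 and 6 in C3+14, 5 and 6 in C1C3a, 3 and 4 in C1C3c and 6 and 4 in C1C3b. Tfap2c, a factor of trophoblast and pluripotent cells, was lower in FL Dux (-3.74), C3+14 (-4.76), C1C3a (-5.17) and C1C3c (-3.26), and in the deletion table in FL Dux (-4.12) and C12345delt14 (-2.65). Grhl3, a factor of surface epithelium, was lower in C3+14 (-3.94) and C1C3c (-1.79) and, against deltC12345delt14, in FL Dux (-4.26) and C12345delt14 (-3.27). Other regulators rose: Grhl2 in C1C3c (1.62), and Snai1 in C1C3a (3.64) and, against deltC12345delt14, in C12345delt14 (3.15). Snai1 fell in C1C3c (-1.84). The median log2 fold change of the list against mCherry was -1.04 in FL Dux, 0.30 in C3+14, 0.01 in C1C3a and -0.33 in C1C3c.

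Markers of other cell types moved with these groups, and their part in the members' changes was not tested. Embryonic stem cell markers were called lower for 6 of 10 in FL Dux, 2 in C1+14, 6 in C3+14, 4 in C1C3a, 6 in C1C3c and 8 in C1C3b, and none was called higher. The summed level of 8 trophectoderm markers was 1616 to 1635 normalised reads in mCherry, 522 to 662 in FL Dux and 1156 to 1494 in C1C3b. Of 7 tested, 0 were higher and 4 lower in FL Dux, 2 and 3 in C3+14, 0 and 3 in C1C3a, 1 and 1 in C1C3c, 1 and 0 in C1+14, and 2 and 2 in C1C3b. In FL Dux Cdx2 was at -3.82 and Gata3 at -3.40 (log2 fold change), and in C3+14 Elf5 was at 2.42, Tead4 at -1.61 and Id2 at -1.85. Of 8 primitive endoderm markers 1 was higher and 1 lower in FL Dux, 4 and 1 in C3+14, 4 and 1 in C1C3a, 3 and 0 in C1C3c, 2 and 0 in C1+14, and 6 and 0 in C1C3b. Foxa2 was at 5.12 in C3+14 and Sox7 at -3.82 in FL Dux, and the summed level of the list was 193 to 208 in mCherry and 722 to 788 in C1C3b. Of 7 fibroblast markers tested, 2 were higher and 0 lower in FL Dux, 4 and 1 in C3+14, 3 and 0 in C1C3a, 2 and 2 in C1C3c, 2 and 1 in C1+14, and 4 and 2 in C1C3b. Markers of the 2-cell embryo were called higher for 8 of 8 in FL Dux, C3+14, C1C3a and C1C3b, 5 in C1C3c and 2 in C1+14. Their summed level was 832290 to 1553900 normalised reads in FL Dux, 15828 to 21607 in C1C3b, 876 to 967 in C1C3c and 0.858 to 1.98 in mCherry.

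The scale of the members' changes depends on how libraries are made comparable. Quantile normalization moved the median log2 fold change of all genes by -0.36 in FL Dux, -0.09 in C1+14, -0.48 in C3+14, -0.10 in C1C3c, -0.44 in C1C3a and -0.28 in C1C3b against mCherry, and by -0.32 in FL Dux and -0.25 in C12345delt14 against deltC12345delt14. Under it the members called higher and lower than mCherry were 3 and 13 in FL Dux, beside 18.1% and 25.9% of all genes. They were 8 and 15 in C3+14 (19.9% and 27.0% of all genes), 8 and 19 in C1C3a (19.4% and 28.0%), 10 and 19 in C1C3b (20.6% and 22.5%) and 0 and 7 in C1+14 (8.93% and 6.36%). They were 12 and 13 in C3+14 against C1+14 (19.0% and 27.4%), 7 and 4 in C3+14 against FL Dux (14.7% and 12.5%), and 1 and 18 in C12345delt14 against deltC12345delt14 (9.21% and 14.3%). DESeq2 gave 2 and 8 in C1+14 against mCherry (12.3% and 5.78% of all genes) and 7 and 8 in C1C3b against C1C3a (16.5% and 16.2%), and edgeR 5 and 6 in C1C3c against C1+14 (5.55% and 3.06%). Falls of Gja1 and Cldn4 against mCherry in FL Dux, C3+14, C1C3a and C1C3c kept their sign under these settings. They were far larger than the moves of the median, so the sign could hardly turn and nothing is read from it. Cldn4 was also selected on a fold change against mCherry.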

How the data were processed

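Poly(A) RNA was sequenced in 20 libraries, 2 per group. The authors deposited 2 tables of normalised read counts (unit: signal), 1 size factor per library. Trim Galore 0.5.0, FastQC, DESeq2 and mm10 are named per the submitters' processing notes; the aligner, the counter, the annotation and the strand setting are not given in the sources used here. Because 100% of values above 0 were whole multiples of 1 step per library, reads were recovered and used for edgeR 4.0.16 and DESeq2 1.42.0 as alternatives. Of 55487 genes listed, 55227 had a symbol in GENCODE M21, and 1 of 106 members, Cldn34c3, was not among them.

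The log2 of the normalised reads plus 1 was fitted with limma 3.58.1 in R 4.3.3 (trended variance, all groups of a table in 1 fit) for genes with at least 10 normalised reads in 2 libraries, with Benjamini-Hochberg adjustment over all genes tested in each of 16 comparisons. The fit was also run on simulated data in which all libraries had the same spread. Replicates here differed in spread, with a chi-square per gene between replicates of 3.31 in mCherry and 78.9 in FL Dux. The simulation cannot show how the fit handles unequal spread, and nothing is read from it. With 2 against 2 libraries an exact two-sided permutation test cannot go below 0.333. A fold against a group at 0 takes 3 reads per library as the floor.

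Members, lists and tests were chosen with earlier results of these data known. The genes named are Gjb5, Cldn4 and Krt13, the 5 members of each family with the highest mean in each table, and in each comparison up to 5 called members per direction with the largest fold change and a mean of at least 50. Some genes that this rule names are not reported here. Further genes named for a family or a cell type list were chosen after their values were seen. Alternatives were pseudocounts of 0.1 and 8, no filter, only the 2 groups compared, edgeR, DESeq2, TMM and quantile scaling, a replicate block and leaving out each library. The upstream sequences come from RefSeq tables.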

Additional observations from a re-analysis of the deposited data

How the results depend on the processing

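Against 16 called members in FL Dux, 11 in C1+14, 26 in C3+14, 26 in C1C3a, 21 in C1C3c and 28 in C1C3b (each against mCherry), leaving out 1 library at a time gave 15 to 19, 6 to 12, 20 to 26, 18 to 25, 16 to 21 and 22 to 28. Against C1+14 the ranges were 22 to 28 for C3+14, 23 to 28 for C1C3a, 20 to 28 for C1C3b and 3 to 10 for C1C3c, and they were 13 to 19 for C1C3b against C1C3a, 7 to 12 for C3+14 against FL Dux, 16 to 24 for FL Dux and 5 to 17 for C12345delt14 against deltC12345delt14, 0 to 3 for C12345delt14 against FL Dux, and 0 for deltC12345+14 against deltC12345delt14. C1+14 against mCherry gave 6 without mCherry replicate 1 and 6 without mCherry replicate 2, C1C3c against C1+14 gave 3 without C1C3c replicate 2 and 4 without C1+14 replicate 2, C3+14 against FL Dux gave 7 without C3+14 replicate 2, and C12345delt14 against FL Dux gave 3 without FL Dux replicate 2. A lone library left in a group was assumed to vary like the other groups. Shares of all genes called in the fits without a library are not given, so nothing about the members is read from these ranges. With only the 2 groups fitted, C1+14 against mCherry gave 7, beside 2973 of all 21584 genes. C1C3c against C1+14 gave 0 there, beside 0 of all genes. A fit of 2 groups has 2 residual degrees of freedom. Quantile scaling gave 7 in C1+14 against mCherry, beside 8.93% of all genes higher and 6.36% lower. C12345delt14 against FL Dux gave 3 with a pseudocount of 8, 2 by DESeq2 and 1 by quantile scaling. Of all genes, DESeq2 called 2.7% higher and 3.82% lower there, and quantile scaling 1.03% and 1.15%. The cause was not tested. Signs turned for Krt13 in FL Dux against mCherry under quantile scaling (-0.21); for Gjb5 in C3+14 against FL Dux (0.10) with a pseudocount of 8 (-0.019), edgeR (-0.31), DESeq2 (-0.35), quantile scaling (-0.14), and without FL Dux replicate 1 (-1.10; its leave-one-out values ran from -1.10 to 1.29) or C3+14 replicate 1 (-0.16); for Gjb5 in C1C3b against C1C3a (-1.32) without C1C3b replicate 1 (0.30, against -2.94 without replicate 2, which passed); and for Krt13 there (-0.14) without C1C3a replicate 1 (0.63) or C1C3b replicate 1 (0.68, against -0.96 without replicate 2). None of these differences was called with all libraries. Of 2687 recomputed values for 128 results on single genes, 2585 kept direction and side of the threshold, 69 lost the threshold, 23 gained it and 10 turned sign.

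Replicate numbers did not pair the samples: same-numbered libraries had deviations that correlated between -0.10 and 0.05 among chimera libraries, at 0.135 for FL Dux and C12345delt14 and -0.57 for deltC12345+14 and deltC12345delt14. In that last pair of groups, deltC12345+14 replicate 2 and deltC12345delt14 replicate 1 were of the low kind of library and the others of the high kind. The part of the kind in this value was not tested. With a replicate block the counts were 16, 10, 26, 25, 20 and 28 in that order against mCherry, 26, 27, 26 and 9 against C1+14, 17 for C1C3b against C1C3a, 11 for C3+14 against FL Dux, 22 and 18 for FL Dux and C12345delt14 against deltC12345delt14, and 0 in the other 2 comparisons. A crossed pairing of the last pair of groups, chosen after seeing the data, gave 0. Shares of all genes called with a block are not given, so nothing about the members is read from these counts. Leaving out members with shared sequence was also chosen after seeing the data. Against mCherry it gave 4 higher and 9 lower in FL Dux, 9 and 11 in C3+14, 5 and 14 in C1C3a and 7 and 13 in C1C3c. FL Dux against deltC12345delt14 gave 6 and 15. Fewer members were tested then, and the shares of all genes are those given above. Depth limits the low members: 1 read was worth up to 1.81 normalised reads, so levels of a few normalised reads rest on a few reads.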

Other observations

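Gja10 was the only member with at least 20 reads in 1 library and at least 20 times fewer in the next of the same table, and this occurred in both tables. It had 449 normalised reads in C1C3b replicate 2, where the next library of the chimera table had 3.24, and 426 in deltC12345+14 replicate 2, where the next of the deletion table had 4.10. The other replicate of each group had 2.63 and 0.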
